A study of Mus musculus with 12 samples.

Results

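Receptors of the TNF superfamily were followed at the transcript level in mouse bone-marrow-derived macrophages that carried or lacked Alpk1 and were given ADP-Hep. The 9 receptor genes were Tnfrsf1a, Tnfrsf1b, Fas, Tnfrsf9, Tnfrsf10b, Tnfrsf11a, Tnfrsf14, Tnfrsf21 and Ltbr, taken by symbol from the deposited count table, in which 37542 genes could be used. Macrophages had been grown from bone marrow for 7 days in medium conditioned by L929 cells, and the strain was labelled C57BL/6N. The 4 groups, each of 3 libraries, were Alpk1 knockout (KO) cells with 100 µM ADP-Hep, KO cells with PBS, wild-type (WT) cells with 100 µM ADP-Hep and WT cells with PBS, all for 4 h. The labels give neither the deleted part of Alpk1 nor whether libraries came from separate animals or cultures, so the p-values cover the spread among the 3 libraries of a group, part or all of which could be technical.

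Receptors of this superfamily sit in the plasma membrane and are brought together by trimeric ligands. Those with a cytoplasmic death domain, such as Tnfrsf1a, Fas, Tnfrsf10b and Tnfrsf21, can recruit adaptors that lead to cell death or to NF-kB signalling. The others bind TRAF proteins directly and signal mainly through NF-kB and MAP kinases. ALPK1 is a cytosolic kinase that is switched on by ADP-heptose, a bacterial sugar nucleotide, and signals through TIFA and TRAF6 to NF-kB. In macrophages, TNF is both a main product and a signal received through Tnfrsf1a and Tnfrsf1b.

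The libraries held 16110654 to 31333973 counts, of which 12307826 to 25742912 fell in the rows used. In the rest of the table, the KO columns were out of step with the WT columns, and those rows were left out (processing notes). All 9 receptors lie in the rows used, and 8 of them passed the filter on low counts, Tnfrsf9 being the exception. One KO ADP-Hep column bears a number that matches no label, so that library is named without a replicate number and is given last in its group. Alpk1 itself stood at 21.1 ± 1.70 CPM (counts per 1e6, scaled by TMM) in KO ADP-Hep libraries and 21.3 ± 1.02 CPM in KO PBS libraries, against 53.8 ± 1.48 CPM in WT ADP-Hep libraries and 29.4 ± 3.19 CPM in those of WT PBS (SD, n = 3 each). Its transcript was thus lower but still counted in KO cells, and the reads were not tied to the deleted part. The 8 macrophage markers summed to 26200 to 26900 CPM in KO ADP-Hep and 27000 to 27800 in KO PBS libraries. In WT cells they summed to 29100 to 30000 CPM with ADP-Hep and 25100 to 27000 with PBS. Most of each sum was Lyz2, which averaged 19240, 19990, 19810 and 19380 CPM in those groups, in that order. Other markers did move in WT cells. Cd14 averaged 1604 CPM with ADP-Hep and 136 CPM with PBS, and Mrc1 390 and 454 CPM. Adgre1 averaged 3445 and 1934 CPM, Csf1r 2688 and 2318 CPM, and Fcgr1 184 and 131 CPM. Cd68 averaged 1121 and 1351 CPM, and Itgam hardly moved, at 250 and 257 CPM. In KO cells Adgre1 averaged 2422 CPM with ADP-Hep and 2341 CPM with PBS. Markers of T and NK cells, dendritic cells and stromal cells each summed to under 4 CPM in every library, and Cd3e, Cd3g, Ncr1 and Pax5 were at 0 throughout.

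Per length, the macrophages carried far more Tnfrsf1b, the TNF receptor without a death domain, than any of the other 8 receptors. Levels in RPKM (CPM per kilobase of exon) put Tnfrsf1b at 177 ± 13 in KO ADP-Hep, 244 ± 11.4 in KO PBS, 689 ± 70.4 in WT ADP-Hep and 233 ± 16.2 in WT PBS libraries (SD, n = 3 each). Tnfrsf1a, the death-domain TNF receptor, came next, at 55.3 ± 1.08, 50.1 ± 0.202, 67.7 ± 3.15 and 47.9 ± 0.426 RPKM in the same 4 groups, in that order. In KO ADP-Hep, KO PBS and WT PBS libraries the order of the levels per length went on with Tnfrsf14, Ltbr, Tnfrsf21, Tnfrsf11a, Fas, Tnfrsf10b and Tnfrsf9, and only Tnfrsf14 and Ltbr overlapped between neighbours. In WT ADP-Hep libraries, Tnfrsf11a and Fas both stood above Tnfrsf21, and Ltbr and Tnfrsf11a overlapped. There Fas was at 24.4 ± 0.709 RPKM and Tnfrsf21 at 18.3 ± 0.605 RPKM (SD, n = 3 each).

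Summed per length, the transcripts of the 9 receptors came to 340 ± 14.5 RPKM in KO ADP-Hep and 387 ± 15.7 RPKM in KO PBS libraries, against 916 ± 76.3 RPKM in WT ADP-Hep and 377 ± 20 RPKM in WT PBS libraries (SD, n = 3 each). Most of that sum was Tnfrsf1b, whose share was 51.9 ± 1.61% in KO ADP-Hep, 63.2 ± 0.547% in KO PBS, 75.2 ± 1.42% in WT ADP-Hep and 61.8 ± 1.05% in WT PBS libraries. Without it, the other 8 receptors summed to 164 ± 1.72 RPKM in KO ADP-Hep and 143 ± 4.76 RPKM in KO PBS libraries, against 227 ± 7.27 RPKM in WT ADP-Hep and 144 ± 3.96 RPKM in WT PBS libraries. The level per length of Tnfrsf1b over that of Tnfrsf1a was 3.20 ± 0.250 in KO ADP-Hep and 4.88 ± 0.215 in KO PBS libraries, and 10.2 ± 0.609 in WT ADP-Hep and 4.87 ± 0.311 in WT PBS libraries. The balance between both TNF receptors therefore moved in opposite directions with ADP-Hep in the 2 genotypes. These are transcript levels of whole cultures, in which fewer cells of a type and less RNA per cell cannot be told apart.

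**Figure D1:**
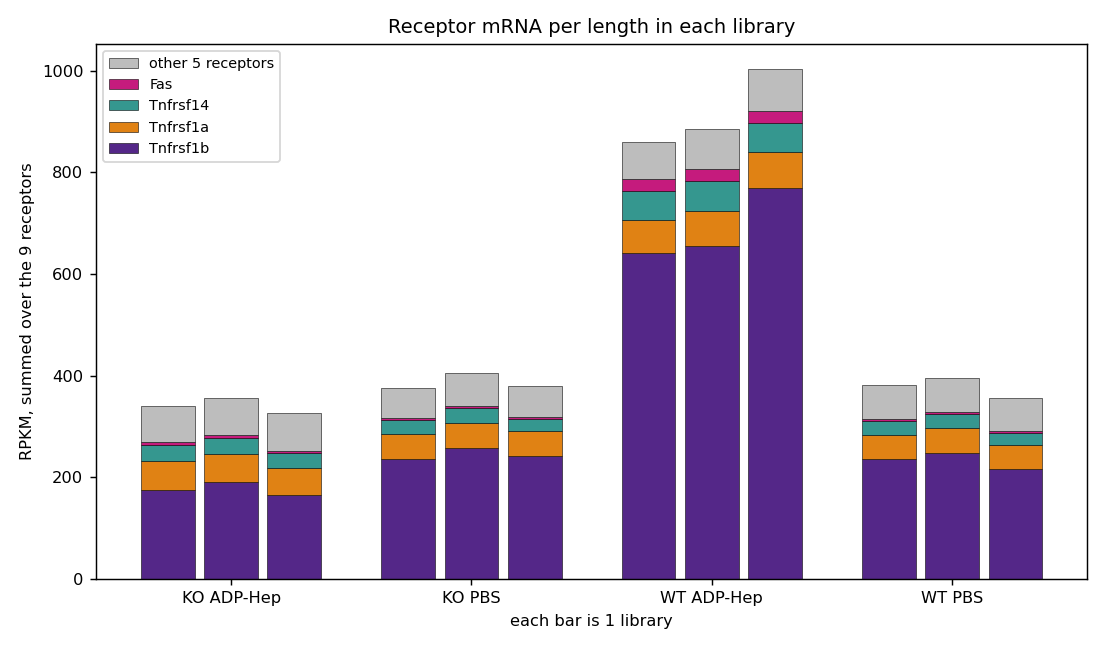
Stacked bars of the level per length (RPKM, axis from 0) of Tnfrsf1b, Tnfrsf1a, Tnfrsf14, Fas and the other 5 receptors together, 1 bar for each of the 12 libraries, in the order KO ADP-Hep, KO PBS, WT ADP-Hep and WT PBS. Tnfrsf1b makes up 75.2% of the sum on average in WT ADP-Hep libraries and 51.9% in KO ADP-Hep libraries.

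ADP-Hep raised 7 receptors and lowered 1 in WT macrophages, from a 5.99-fold rise of Fas to a 1.17-fold rise of Ltbr and a fall of Tnfrsf21 to 0.833 times its PBS level. By edgeR's quasi-likelihood test with Benjamini-Hochberg adjustment over 12261 genes (threshold 0.05), the KO response called 4 receptors higher and 1 lower, and the WT response called 7 higher and 1 lower, of 8 tested. The 4 higher in KO cells became 2 without KO ADP-Hep replicate 1, without KO PBS replicate 1, without KO PBS replicate 3 or with totals of the whole table as the scaling. In those fits 1179, 1249, 1346 and 736 of all genes were called higher, in that order, against 1678. With all libraries and TMM, 13.7% of all genes were called higher and 15.3% lower in the KO response (28.9% in either direction). In the WT response 31.9% were called higher and 31.6% lower (63.5% in either direction). The median log2 change of the 8 receptors was 0.22 in KO cells and 0.65 in WT cells. Over all genes tested it was 0.0052 and -0.0058, and over 10 other tested receptors of the superfamily 0.09 and -0.16. The receptors were chosen with earlier results of these data known, so setting them beside all genes is a description and not a test. The libraries of the ADP-Hep and PBS groups were fully apart for 4 of the 8 in KO cells (42.1% of all genes) and for 8 of the 8 in WT cells (65.9% of all genes). The difference between the KO and WT responses was called for 6 receptors, 1 higher and 5 lower, where 24.9% of all genes were called higher and 24.6% lower (49.5% in either direction). The split over all genes depends on the scaling. With library totals of the rows used, the KO response had 2360 genes higher and 1483 lower (1678 and 1870 with TMM), the WT response 2990 and 4927 (3914 and 3871 with TMM) and the difference 4507 and 2020 (3053 and 3018 with TMM). That scaling put the median of all genes at -0.1163 in the WT response and 0.1647 in the difference. With totals of the whole table, the KO response had 736 genes higher and 1825 lower.

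**Figure D2:**
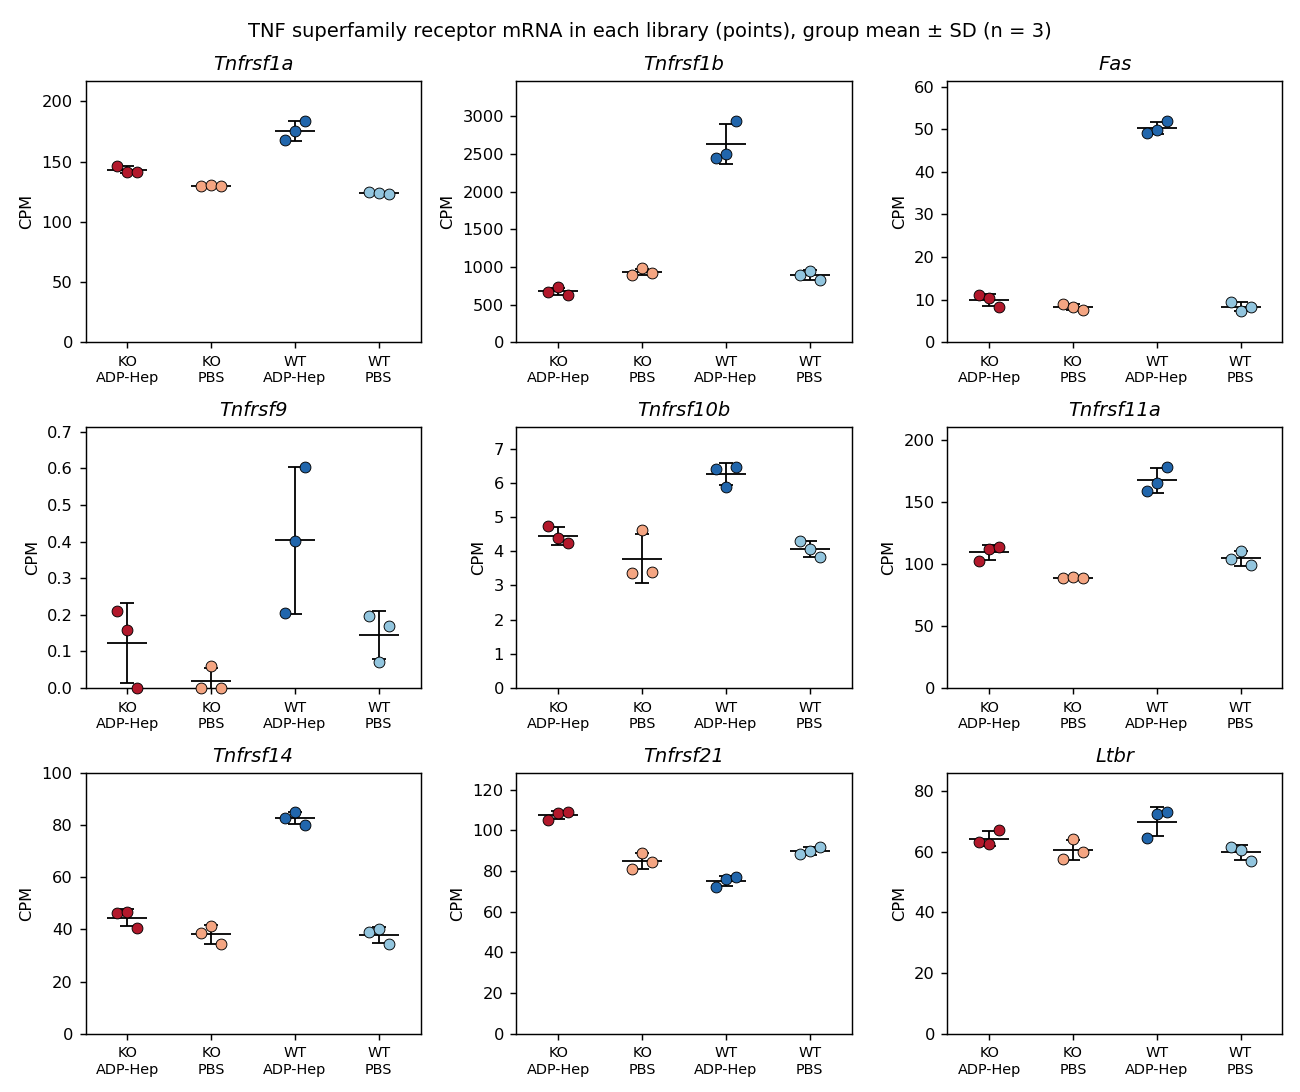
CPM of each of the 9 receptors, 1 panel per gene on a linear axis from 0, with the groups in the order KO ADP-Hep, KO PBS, WT ADP-Hep and WT PBS. Points are libraries, long dashes group means and bars 1 SD (n = 3), cut at 0 for Tnfrsf9. In WT cells, Fas, Tnfrsf1b and Tnfrsf14 stand well above PBS after ADP-Hep, while Tnfrsf21 stands below it.

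The promoters of the 4 receptors whose transcripts differed most between genotypes or moved in opposite directions are shown for reference, as the 250 bases before the start site. Sequences and starts are those of RefSeq on GRCm38.p6, written 5′ to 3′ on the strand of the gene, and capitals mark letters that matched a motif. The windows are chr4:145246871-145247120 (minus strand) for Tnfrsf1b, chr19:34290409-34290658 (plus strand) for Fas, chr4:154928078-154928327 (minus strand) for Tnfrsf14 and chr17:43016305-43016554 (plus strand) for Tnfrsf21.
Tnfrsf1b: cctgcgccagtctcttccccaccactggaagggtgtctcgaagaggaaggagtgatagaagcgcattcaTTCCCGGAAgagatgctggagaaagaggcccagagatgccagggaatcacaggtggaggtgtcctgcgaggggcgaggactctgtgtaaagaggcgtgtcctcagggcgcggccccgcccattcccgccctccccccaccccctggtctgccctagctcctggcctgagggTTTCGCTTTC
Fas: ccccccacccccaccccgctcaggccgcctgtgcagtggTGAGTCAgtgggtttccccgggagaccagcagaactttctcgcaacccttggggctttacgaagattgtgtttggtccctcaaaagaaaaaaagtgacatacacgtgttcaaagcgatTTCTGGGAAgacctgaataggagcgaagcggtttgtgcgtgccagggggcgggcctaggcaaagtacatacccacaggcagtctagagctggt
Tnfrsf14: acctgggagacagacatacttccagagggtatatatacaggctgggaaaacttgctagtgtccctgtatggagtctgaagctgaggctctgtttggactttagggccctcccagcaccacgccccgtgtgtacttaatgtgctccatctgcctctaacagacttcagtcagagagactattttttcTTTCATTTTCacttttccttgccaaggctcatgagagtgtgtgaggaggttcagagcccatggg
Tnfrsf21: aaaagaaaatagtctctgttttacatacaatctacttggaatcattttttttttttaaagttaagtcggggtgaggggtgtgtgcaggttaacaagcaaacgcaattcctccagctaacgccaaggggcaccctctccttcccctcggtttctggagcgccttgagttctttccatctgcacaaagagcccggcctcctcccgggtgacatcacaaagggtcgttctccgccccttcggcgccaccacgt
4 motifs were searched on both strands: GGGNNTTNCC (NF-kB), TTCNNNGAA (GAS, bound by STAT factors), GAAANNGAAA (the ISRE core, bound by IRF and STAT factors) and TGANTCA (AP-1). They occur in 4.11%, 7.02%, 2.98% and 6.75% of 32851 promoter windows of this length, in that order. Tnfrsf1b held a GAS match from base -181 and an ISRE core match from base -10, counted back from the start site. Fas held an AP-1 match from base -211 and a GAS match from base -93, and Tnfrsf14 an ISRE core match from base -64. Both ISRE core matches lie on the opposite strand, where the printed strand reads TTTCGCTTTC for Tnfrsf1b and TTTCATTTTC for Tnfrsf14. Tnfrsf21 held none of the 4. Of the other windows of the receptors, Tnfrsf1a held a GAS match, and 1 of the 2 starts of Tnfrsf9 held a pair of overlapping NF-kB matches beside GAS and AP-1. Ltbr, Tnfrsf11a and the other start of Tnfrsf9 held none. The 30 bases after the Fas window were not found in a GENCODE transcript of Fas. The Tnfrsf14 window lies within the span that GENCODE gives the gene (chr4:154921933-154928563), so another annotated start lies upstream of it. The same holds for the windows of Tnfrsf1a and of both Tnfrsf9 starts. A match of letters is a description of the sequence and not a measured binding site.

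Tnfrsf1b was lowered by ADP-Hep in KO macrophages and raised in WT macrophages. Its protein, TNFR2, binds TNF, recruits TRAF2 and is found mostly on haematopoietic cells. KO ADP-Hep libraries held 668, 727 and 628 CPM, against 898, 982 and 921 CPM in KO PBS libraries. WT ADP-Hep libraries held 2449, 2505 and 2940 CPM, against 898, 948 and 825 CPM in WT PBS libraries. Thus the groups did not overlap in either genotype, and each PBS group lay between both ADP-Hep groups. The log2 change was -0.47 ± 0.07 in KO cells (adjusted p = 5.4e-05) and 1.56 ± 0.07 in WT cells (adjusted p = 7.6e-13), where ± after a log2 change is its approximate SE. The responses differed by -2.03 ± 0.10 (adjusted p = 6.4e-12), KO minus WT. Under ADP-Hep the KO cells were at -1.96 ± 0.07 relative to WT cells (adjusted p = 2.9e-14), and under PBS at 0.07 ± 0.07 (adjusted p = 0.597). The sum of 8 neutrophil markers moved the same way, at 79.8 to 98.6 CPM in KO ADP-Hep and 125 to 149 CPM in KO PBS, against 133 to 160 CPM in WT ADP-Hep and 99.8 to 130 CPM in WT PBS libraries. Of the 7 tested, 0 were called higher and 4 lower in KO cells (13.7% and 15.3% of all genes). In WT cells 3 were called higher and 0 lower (31.9% and 31.6%), and 2 of the 7 had libraries fully apart (65.9%). Mpo and Elane went against the sum in WT cells, while the other markers had higher means with ADP-Hep. Mpo averaged 4.74 ± 1.21 CPM with ADP-Hep and 5.57 ± 1.24 CPM with PBS. Elane averaged 2.63 ± 0.131 and 3.07 ± 0.627 CPM (SD, n = 3 each). Ly6g, which defines neutrophils in mice, was under 1 CPM in every library, and the part of neutrophil RNA in the Tnfrsf1b values was not tested.

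Tnfrsf1a, which encodes the death-domain TNF receptor TNFR1 and is expressed in nearly all cell types, moved less than Tnfrsf1b. It was at 146, 142 and 141 CPM in KO ADP-Hep libraries, against 130, 130 and 129 CPM in KO PBS libraries. In WT cells it was at 168, 175 and 184 CPM with ADP-Hep and 125, 124 and 123 CPM with PBS. ADP-Hep libraries were the higher ones in both genotypes, without overlap. The log2 changes were 0.14 ± 0.05 in KO cells (adjusted p = 0.0207) and 0.50 ± 0.04 in WT cells (adjusted p = 4.3e-10), and they differed by -0.36 ± 0.06 (adjusted p = 5.0e-05). The KO call did not hold without KO ADP-Hep replicate 1 (adjusted p = 0.113), KO PBS replicate 1 (adjusted p = 0.0528) or KO PBS replicate 3 (adjusted p = 0.0561), nor with totals of the whole table as the scaling (log2 change 0.09, adjusted p = 0.464).

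Fas, the death receptor for FasL that recruits FADD and caspase-8, had the largest WT response of the 8 receptors tested. KO ADP-Hep libraries held 10.96, 10.45 and 8.31 CPM, against 8.95, 8.27 and 7.57 CPM in KO PBS libraries. WT ADP-Hep libraries held 49.2, 49.9 and 52.0 CPM, against 9.31, 7.41 and 8.37 CPM in WT PBS libraries. KO libraries with and without ADP-Hep overlapped, while the WT ADP-Hep libraries stood far above all the others. The log2 change was 0.26 ± 0.11 in KO cells (adjusted p = 0.0903) and 2.58 ± 0.09 in WT cells (adjusted p = 1.4e-18), and 1.82% of all genes had a larger WT change in either direction. The responses differed by -2.32 ± 0.15 (adjusted p = 1.4e-12). The KO response passed the threshold without the KO ADP-Hep library that has no number (0.38, adjusted p = 0.0158) and under library totals of the rows used (0.30, adjusted p = 0.0486). Fas spans chr19:34290666-34327772 on the plus strand of mm10 and overlaps Gm27818, a non-coding RNA gene annotated on the same strand.

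Tnfrsf10b, a mouse receptor for TRAIL with a death domain, was scarce. Values were 4.75, 4.40 and 4.23 CPM in KO ADP-Hep and 3.36, 4.62 and 3.38 CPM in KO PBS libraries, against 6.40, 5.88 and 6.48 CPM in WT ADP-Hep and 4.30, 4.06 and 3.82 CPM in WT PBS libraries. Only the WT groups were apart. The log2 change was 0.22 ± 0.15 in KO cells (adjusted p = 0.287) and 0.63 ± 0.13 in WT cells (adjusted p = 0.00025). The difference between the responses, -0.40 ± 0.20, did not pass the threshold (adjusted p = 0.101), so the data do not show that the KO and WT responses of Tnfrsf10b differed.

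Tnfrsf21, which encodes the death-domain receptor DR6, went the opposite way to Tnfrsf1b in each genotype. It was at 105, 108 and 109 CPM in KO ADP-Hep libraries, against 81.2, 89.0 and 84.5 CPM in KO PBS libraries. WT ADP-Hep libraries held 72.3, 76.2 and 76.9 CPM, against 88.2, 89.7 and 91.9 CPM in WT PBS libraries. Neither genotype showed an overlap, and KO ADP-Hep libraries were the highest of all. The log2 change was 0.34 ± 0.05 in KO cells (adjusted p = 8.0e-06) and -0.26 ± 0.05 in WT cells (adjusted p = 4.8e-05), and the difference between them was 0.60 ± 0.07 (adjusted p = 7.9e-08). The sum of 6 B cell markers moved in the same directions, at 71.8 to 75.4 CPM in KO ADP-Hep and 59.7 to 67.4 CPM in KO PBS, against 21.7 to 26.7 CPM in WT ADP-Hep and 48.1 to 53.3 CPM in WT PBS libraries. Nearly all of that sum was Ighm and Cd79b, the 2 markers abundant enough to test. Ighm averaged 58.3 ± 1.70 CPM in KO ADP-Hep and 49.3 ± 4.17 CPM in KO PBS, against 14.8 ± 1.09 CPM in WT ADP-Hep and 38.1 ± 1.04 CPM in WT PBS libraries. Cd79b averaged 15.1 ± 0.162 CPM in KO ADP-Hep and 14.8 ± 2.22 CPM in KO PBS, against 9.16 ± 1.5 CPM in WT ADP-Hep and 12.5 ± 1.58 CPM in WT PBS libraries (SD, n = 3 each). Both were called lower in WT cells (31.6% of all genes), and Ighm alone was called higher in KO cells (13.7% of all genes). Pax5 was at 0 in every library, and Cd79a and Ms4a1 were under 1 CPM. The part of B cell RNA in the Tnfrsf21 values was not tested.

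Tnfrsf14 and Tnfrsf11a rose in both genotypes, more so in WT cells. Tnfrsf14 encodes HVEM, the receptor for LIGHT and a ligand of BTLA. It was at 46.2, 46.7 and 40.7 CPM in KO ADP-Hep and 38.5, 41.4 and 34.4 CPM in KO PBS libraries, against 82.7, 84.9 and 80.2 CPM in WT ADP-Hep and 38.9, 40.1 and 34.3 CPM in WT PBS libraries. KO ADP-Hep and KO PBS libraries overlapped, whereas WT ADP-Hep libraries stood above every other. The log2 changes were 0.21 ± 0.07 in KO cells (adjusted p = 0.0280) and 1.14 ± 0.07 in WT cells (adjusted p = 1.5e-13), and they differed by -0.93 ± 0.10 (adjusted p = 2.7e-08). The KO call for Tnfrsf14 was lost without KO ADP-Hep replicate 1 (adjusted p = 0.138), KO ADP-Hep replicate 3 (adjusted p = 0.0827), KO PBS replicate 1 (adjusted p = 0.068) or KO PBS replicate 3 (adjusted p = 0.173), and with totals of the whole table (adjusted p = 0.202).

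Tnfrsf11a encodes RANK, the receptor through which RANKL drives osteoclast formation from macrophage precursors. KO ADP-Hep libraries held 102, 112 and 113 CPM, against 88.1, 89.7 and 88.2 CPM in KO PBS libraries. WT ADP-Hep libraries held 158, 165 and 178 CPM, against 104, 111 and 98.7 CPM in WT PBS libraries. The groups were apart in both genotypes. The log2 changes were 0.30 ± 0.06 in KO cells (adjusted p = 0.00021) and 0.68 ± 0.05 in WT cells (adjusted p = 3.6e-11), with a difference of -0.38 ± 0.08 (adjusted p = 0.00023). The 7 osteoclast markers summed to 114 to 119 CPM in KO ADP-Hep and 125 to 137 CPM in KO PBS, against 88.1 to 92.1 CPM in WT ADP-Hep and 129 to 151 CPM in WT PBS libraries, and Oscar, Dcstamp, Ocstamp and Calcr were under 1 CPM in every library. Of the 3 markers tested, 0 were called higher and 1 lower (Ctsk) in KO cells (13.7% and 15.3% of all genes). In WT cells 1 was called higher (Acp5) and 2 lower (Ctsk and Nfatc1), where 31.9% of all genes were called higher and 31.6% lower. Nfatc1 was the main part of the sum, at 87.9 ± 3.78 CPM in KO ADP-Hep and 95.6 ± 6.80 CPM in KO PBS, against 46.2 ± 0.694 CPM in WT ADP-Hep and 98.2 ± 7.81 CPM in WT PBS libraries (SD, n = 3 each). Acp5 went the same way as Tnfrsf11a in WT cells, by 0.59 ± 0.10 (adjusted p = 1.1e-05). The part of osteoclast-lineage RNA in the Tnfrsf11a values was not tested.

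Ltbr, the lymphotoxin beta receptor, varied least of the 8, with group means within 0.22 of each other on the log2 CPM scale. It was at 63.3, 62.5 and 67.2 CPM in KO ADP-Hep and 57.7, 64.3 and 59.9 CPM in KO PBS libraries, against 64.5, 72.3 and 73.0 CPM in WT ADP-Hep and 61.6, 60.7 and 57.0 CPM in WT PBS libraries. The KO groups overlapped and the WT groups did not. Its log2 change was 0.08 ± 0.06 in KO cells (adjusted p = 0.310) and 0.22 ± 0.06 in WT cells (adjusted p = 0.0017), and the difference of -0.14 ± 0.08 was not called (adjusted p = 0.173). With library totals of the rows used as the scaling, the WT change of 0.11 was not called (adjusted p = 0.0856). Ltbr and Tnfrsf1a are neighbours on chromosome 6 of mm10, at chr6:125306571-125313885 (minus strand) and chr6:125349362-125362484 (plus strand), 35476 bases apart with Scnn1a as the 1 protein-coding gene between them.

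Tnfrsf9, which encodes the costimulatory receptor 4-1BB, was at the limit of detection. KO ADP-Hep libraries held 5, 2 and 0 counts and KO PBS libraries 0, 1 and 0, against 5, 9 and 7 in WT ADP-Hep and 3, 1 and 4 in WT PBS libraries. A count of 0 allows up to 3 counts, or 0.149 to 0.242 CPM in these 3 libraries, counting error only. With no filter on low counts, the WT response was 1.27 ± 0.71 (adjusted p = 0.179), so no change was detectable at this depth. Its gene also overlaps Camta1 on the opposite strand, and whether counting used strand is not given in the sources used here.

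**Figure D3:**
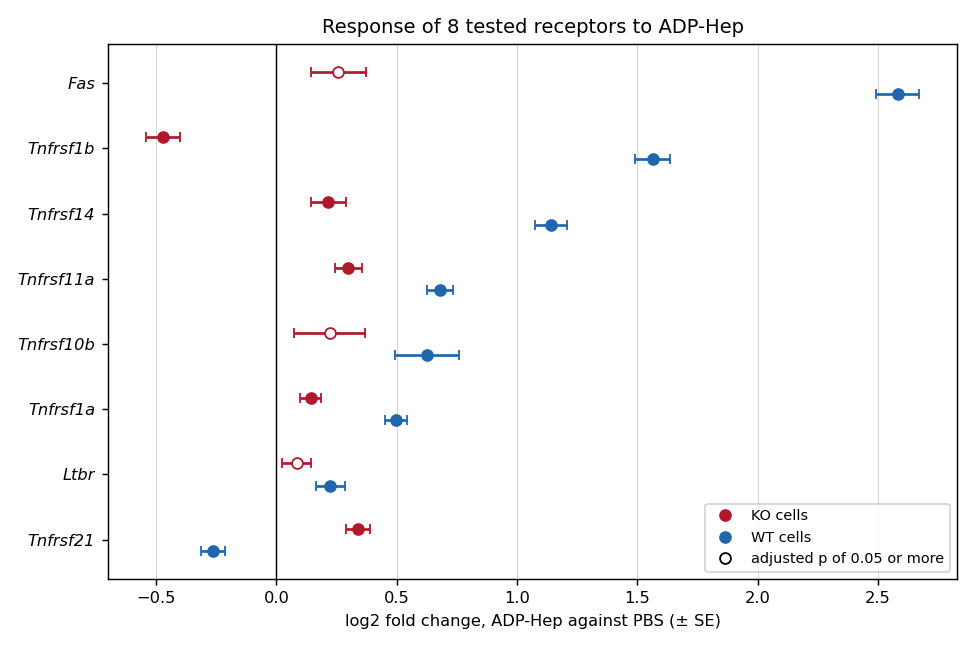
Log2 change with ADP-Hep relative to PBS for the 8 tested receptors in KO cells (red) and in WT cells (blue), with bars of 1 approximate SE and open points where the adjusted p was 0.05 or more. Tnfrsf1b (-0.47 in KO, 1.56 in WT) and Tnfrsf21 (0.34 in KO, -0.26 in WT) lie on opposite sides of 0 in the 2 genotypes.

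Under PBS the receptors of KO and WT macrophages were close to each other, and under ADP-Hep most were lower in KO cells. Under PBS, 0 of the 8 were called higher and 1 lower in KO than in WT cells, where 5.57% of all genes were called higher and 5.82% lower, and 2 of the 8 had non-overlapping libraries (27.7% of all genes). Either way, 11.4% of all genes were called, 683 higher and 714 lower, or 1529 and 196 with totals of the whole table, which put the median of all genes at 0.1159. The gene called was Tnfrsf11a, at -0.23 ± 0.06 (adjusted p = 0.0075), and it was not called without WT PBS replicate 2 (adjusted p = 0.064) or with totals of the whole table (-0.12, adjusted p = 0.345). Tnfrsf1a libraries did not overlap either, but the change of 0.07 ± 0.05 was not called (adjusted p = 0.398). Under ADP-Hep, 1 of the 8 was called higher and 6 lower, where 32.8% of all genes were called higher and 32% lower, and 7 of the 8 had libraries apart (68.6% of all genes). Of all genes, 64.8% were called, 4016 higher and 3929 lower, or 5609 and 2722 with library totals of the rows used, which put the median at 0.1684. The log2 differences, KO relative to WT, were -2.34 ± 0.09 for Fas (adjusted p = 4.1e-18), -0.90 ± 0.07 for Tnfrsf14 (adjusted p = 1.1e-11) and -0.61 ± 0.05 for Tnfrsf11a (adjusted p = 2.4e-10). They were -0.48 ± 0.13 for Tnfrsf10b (adjusted p = 0.0026), -0.29 ± 0.04 for Tnfrsf1a (adjusted p = 3.3e-06) and 0.52 ± 0.05 for Tnfrsf21 (adjusted p = 9.0e-10). Ltbr, at -0.11 ± 0.06, was not called (adjusted p = 0.0890), though it was without WT ADP-Hep replicate 1 (-0.17, adjusted p = 0.0168). These comparisons share their libraries with the responses above and are not independent of them.

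Of the ligands of these receptors, the 3 that were called in WT cells all rose. The list has 8 genes, of which 4 could be tested. In the KO response 1 was called higher and 1 lower (13.7% and 15.3% of all genes), with a median log2 change of -0.60. In the WT response 3 were called higher and 0 lower (31.9% and 31.6% of all genes), with a median of 2.91. Tnf, the ligand of Tnfrsf1a and Tnfrsf1b, averaged 4.28 ± 0.397 CPM in KO ADP-Hep and 6.94 ± 0.498 CPM in KO PBS, against 147 ± 10.7 CPM in WT ADP-Hep and 9.70 ± 1.82 CPM in WT PBS libraries (SD, n = 3 each). Its log2 change was -0.71 ± 0.15 in KO cells (adjusted p = 0.00068) and 3.92 ± 0.08 in WT cells (adjusted p = 4.4e-22), so that Tnf and Tnfrsf1b were both lowered in KO cells and raised in WT cells. Tnfsf10, the ligand TRAIL, changed by 1.75 ± 0.20 in KO cells (adjusted p = 3.4e-07) and by 3.03 ± 0.16 in WT cells (adjusted p = 1.5e-14). Tnfsf9, the ligand of the scarce Tnfrsf9, changed by -0.79 ± 0.31 in KO cells (adjusted p = 0.0622) and by 2.78 ± 0.21 in WT cells (adjusted p = 1.9e-11). Fasl and Tnfsf11, the ligands of Fas and RANK, had 1 count each over the 12 libraries.

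Among 19 other receptors of the superfamily, 10 could be tested. In the KO response 3 were called higher and 2 lower (13.7% and 15.3% of all genes), with a median log2 change of 0.09. In the WT response 2 were called higher and 3 lower (31.9% and 31.6% of all genes), with a median of -0.16. Cd40, a receptor for T cell help, changed by 0.62 ± 0.21 in KO cells (adjusted p = 0.0317) and by 4.61 ± 0.11 in WT cells (adjusted p = 9.1e-22). Tnfrsf8, which encodes CD30, changed by -0.07 ± 0.16 in KO cells (adjusted p = 0.791) and by 1.32 ± 0.13 in WT cells (adjusted p = 3.8e-09). Tnfrsf26 was lower with ADP-Hep in both genotypes, with log2 changes of -0.89 ± 0.09 in KO cells (adjusted p = 6.4e-08) and of -1.35 ± 0.10 in WT cells (adjusted p = 1.4e-11). Relt changed by 0.25 ± 0.15 in KO cells (adjusted p = 0.215) and by -1.14 ± 0.18 in WT cells (adjusted p = 5.4e-06). Of the others that were called, picked here after their values were seen, Tnfrsf13b, which encodes TACI, changed by 0.67 ± 0.06 in KO cells (adjusted p = 7.1e-09) and by 0.03 ± 0.06 in WT cells (adjusted p = 0.703). Tnfrsf12a, the TWEAK receptor, changed by -1.14 ± 0.41 in KO cells (adjusted p = 0.0486) and by -0.24 ± 0.43 in WT cells (adjusted p = 0.659). The near-identical copies Tnfrsf22 (called lower in WT cells) and Tnfrsf23 (called higher in KO cells) are on this list, and reads may have been split between them.

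The 14 signalling proteins that act at or downstream of these receptors were all tested. The list holds adaptors, ubiquitin ligases, the kinases Ripk1 and Map3k14 (NIK), the protease Casp8 and its inhibitor Cflar. In the KO response 4 were called higher and 4 lower (13.7% and 15.3% of all genes), with a median log2 change of -0.10. In the WT response 9 were called higher and 3 lower (31.9% and 31.6% of all genes), with a median of 0.48. Traf1, an adaptor that joins TRAF2 at receptors such as Tnfrsf1b, averaged 1.88 ± 0.485 CPM in KO ADP-Hep and 2.25 ± 0.414 CPM in KO PBS, against 102 ± 3.94 CPM in WT ADP-Hep and 2.34 ± 0.174 CPM in WT PBS libraries (SD, n = 3 each). Its log2 change was -0.35 ± 0.20 in KO cells (adjusted p = 0.206) and 5.45 ± 0.10 in WT cells (adjusted p = 4.1e-24). Birc3, the ubiquitin ligase cIAP2, changed by -0.17 ± 0.06 in KO cells (adjusted p = 0.0312) and by 2.30 ± 0.05 in WT cells (adjusted p = 2.4e-22). Cflar, whose product c-FLIP restrains caspase-8 at death receptors such as Fas, changed by -0.12 ± 0.05 in KO cells (adjusted p = 0.0591) and by 1.64 ± 0.05 in WT cells (adjusted p = 1.7e-20). Traf3 changed by -0.17 ± 0.06 in KO cells (adjusted p = 0.0361) and by 1.04 ± 0.05 in WT cells (adjusted p = 1.5e-15). The 3 that fell in WT cells, picked here for that, included Fadd and Ripk1, the death-domain partners of Fas and of Tnfrsf1a. Fadd changed by -0.19 ± 0.08 in KO cells (adjusted p = 0.0728) and by -0.56 ± 0.07 in WT cells (adjusted p = 4.4e-07). Ripk1 changed by -0.18 ± 0.05 in KO cells (adjusted p = 0.00729) and by -0.58 ± 0.05 in WT cells (adjusted p = 2.0e-10). Traf5, the other one, changed by 0.05 ± 0.12 in KO cells (adjusted p = 0.783) and by -0.57 ± 0.13 in WT cells (adjusted p = 0.00043). The 4 called higher in KO cells were Map3k14, Casp8, Nsmaf and Birc2, and the 4 called lower were Birc3, Traf3, Tradd and Ripk1. The difference between the KO and WT responses, KO minus WT, was called for 12 of the 14. It was higher for 4 and lower for 8, where 24.9% of all genes were called higher and 24.6% lower.

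The 4 genes of receptor shedding were all tested. In the KO response 0 were called higher and 2 lower (13.7% and 15.3% of all genes). In the WT response 2 were called higher and 1 lower (31.9% and 31.6% of all genes). Adam17, the protease that releases the outer part of both TNF receptors and of TNF, changed by -0.14 ± 0.04 in KO cells (adjusted p = 0.0130) and by 0.69 ± 0.04 in WT cells (adjusted p = 2.8e-13). Rhbdf2, which carries ADAM17 to the cell surface, changed by -0.46 ± 0.06 in KO cells (adjusted p = 1.1e-06) and by 0.94 ± 0.05 in WT cells (adjusted p = 5.1e-14). Adam10 changed by 0.10 ± 0.04 in KO cells (adjusted p = 0.0992) and by -0.19 ± 0.04 in WT cells (adjusted p = 0.00058). Receptor protein on the cell surface and in the medium was not measured, so the transcripts do not give the number of receptors a cell showed.

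**Figure D4:**
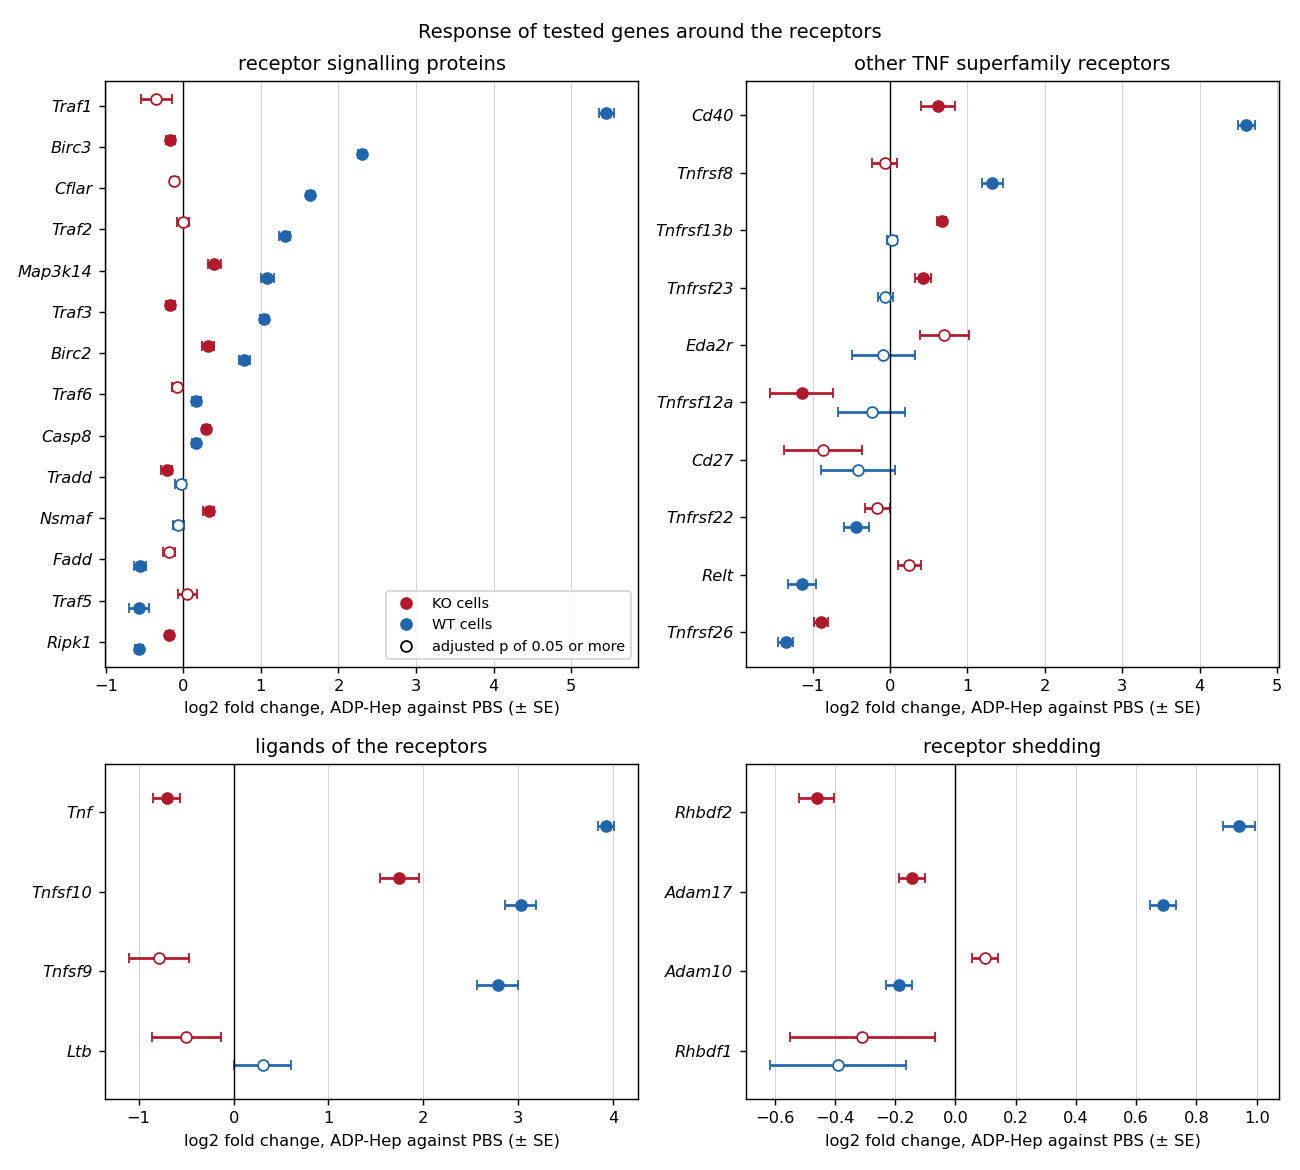
Log2 change with ADP-Hep relative to PBS for every tested gene of the 4 lists, in KO cells (red) and in WT cells (blue), with bars of 1 approximate SE and open points where the adjusted p was 0.05 or more. Traf1, Cd40 and Tnf changed by 5.45, 4.61 and 3.92 in WT cells and by -0.35, 0.62 and -0.71 in KO cells.

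For the 3 receptors that varied most over the groups, the genes with the most similar profiles over the 12 libraries were listed. The measure was the Euclidean distance of log2 CPM, each gene centred on its own mean, so absolute level did not count. Sdc1, Nr1h3 and Gch1 were nearest to Fas, at distances of 0.519, 0.626 and 0.631. Mllt6, Nfkbib and Ppfibp2 were nearest to Tnfrsf1b, at 0.312, 0.362 and 0.366, and Sema4a, Lrrc8b and Parp10 to Tnfrsf14, at 0.195, 0.270 and 0.290. Pearson's r lay between 0.985 and 0.993 for these 9 genes, and the libraries share their treatment groups. By 1 minus Pearson's r instead, 0 of 3 genes were shared for Fas, 0 of 3 for Tnfrsf1b and 2 of 3 for Tnfrsf14.

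**Figure D5:**
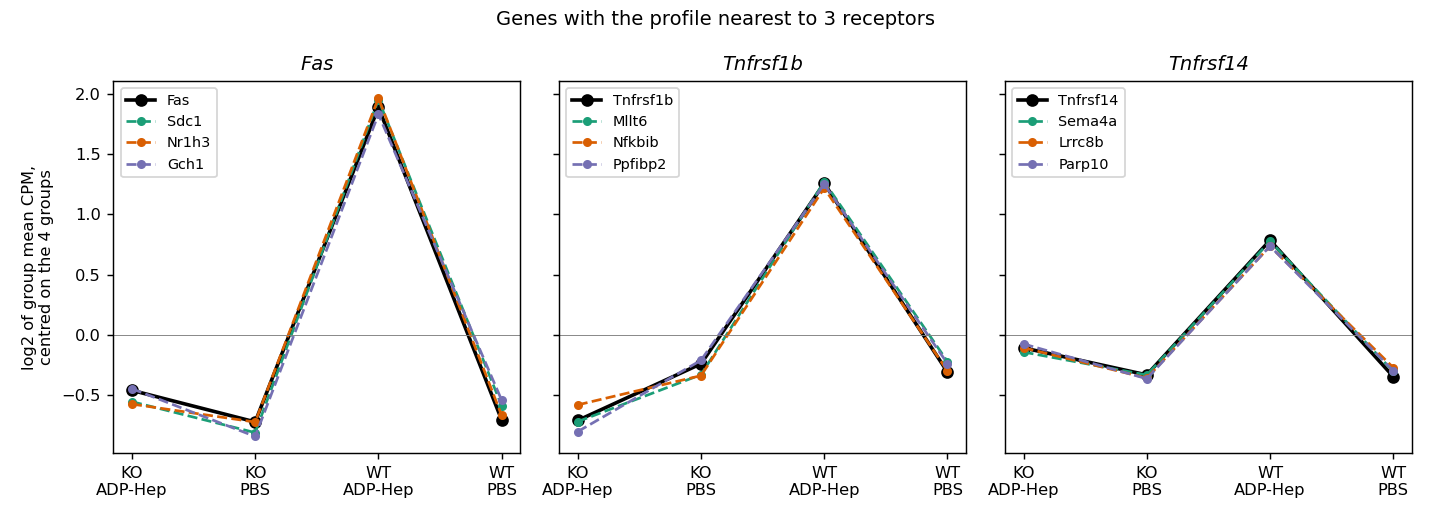
Log2 of the group mean CPM, centred on the mean of the 4 groups, for Fas, Tnfrsf1b and Tnfrsf14 (solid lines) and for the 3 genes nearest to each (dashed lines), in the order KO ADP-Hep, KO PBS, WT ADP-Hep and WT PBS. All are highest in WT ADP-Hep, and over the libraries distances from 0.195 to 0.631 separate the genes from their receptor.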

How the data were processed

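RNA of 12 macrophage libraries, 3 in each of 4 groups, was sequenced from a stranded mRNA kit, per the labels' protocols. The authors deposited a table of raw counts per gene. Per the submitters' processing notes, STAR, featureCounts, RSEM, DESeq2, FastQC and Trim Galore were in use and mm10 and hg38 were the builds, with no roles or versions given. Of 56748 identifiers, 37542 rows were used: below them the KO columns are displaced against the WT columns (correlation of mean log2 counts 0.042, or 0.9787 when moved by 1 row, against 0.9965 above), so 19206 rows were left out, with a margin of 100.

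Genes were tested with edgeR 4.0.16 (R 4.3.3; TMM, its default filter on low counts, robust quasi-likelihood fit of 4 group means), p-values were adjusted by Benjamini-Hochberg over 12261 genes, and the threshold was 0.05. The SE is the log2 change over the square root of F, an approximation. The biological coefficient of variation was 4.81%. The procedure was tested on simulated data in which few genes changed, as many up as down. That setting differs from these data, so it does not test the scaling used here. RPKM used GENCODE M21 union-exon lengths on mm10. DESeq2 1.42.0, limma-voom 3.58.1, other scalings and filters, and leaving out each library were the alternatives. Promoters came from RefSeq, for 8 of the 9 receptors. Of 9 windows, 8 were followed by 30 bases of a GENCODE transcript, that of Fas being the exception. The receptors and gene lists were chosen with earlier results of these data known, and the motifs after their matches were seen. From each list, up to 4 genes called in the WT response were named by smallest p.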

Additional observations from a re-analysis of the deposited data

Results flagged for a closer look

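6 receptors are listed because the difference between the KO and the WT response to ADP-Hep passed the test of that difference in edgeR. On the log2 scale, KO response minus WT response, it was -2.32 for Fas, -2.03 for Tnfrsf1b, -0.93 for Tnfrsf14, -0.38 for Tnfrsf11a and -0.36 for Tnfrsf1a. For Tnfrsf21 it was 0.60, with the response in the opposite direction in each genotype. Of all genes, 49.5% passed this test in one direction or the other.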

How the results depend on the processing

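Direction did not change for any called result in the alternatives run. Of the values that answer a comparison, 184 stayed within 1.5 times of the count and 6 moved, and for single receptors 743 were unchanged in call, 13 lost it and 4 gained it. The genes nearest to Fas and to Tnfrsf1b shared 0 of 3 by 1 minus Pearson's r. The KO response called 2 receptors higher, against 4, with totals of the whole table as the scaling, and leaving out each library gave 2 to 5. Over all genes, 736 were called higher with those totals and 1179 to 1589 when each KO library was left out, against 1678. Under PBS, 0 receptors were called lower in KO cells, against 1, with totals of the whole table, and leaving out each library gave 0 to 1. Over all genes, 196 were called lower with those totals and 391 to 611 when each PBS library was left out, against 714. The cause was not tested. Same-numbered libraries did not deviate together (15 pairs, r -0.36 to 0.22, 4 over 0.1). A fit with the replicate number as a block, over 11 numbered libraries, called 4 receptors higher and 1 lower in the KO response and 7 and 1 in the WT response. Of the 12369 genes it tested, 1169 were called higher and 1414 lower in the KO response. In the WT response 3847 were called higher and 3850 lower. In that replicate block, Fas in KO cells was called (0.35, adjusted p = 0.0384) and Tnfrsf1a was not (0.15, adjusted p = 0.0686). With lengths of the longest transcript, 7 of 9 receptors held their rank in WT ADP-Hep libraries and 9 of 9 in the other groups. Tnfrsf9 is limited by its depth of 0 to 9 counts a library.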
